A study of Mus musculus with 51 samples.

Results

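The genes described here copy DNA and supply its building blocks. They were taken as a list of 37 genes by name, drawn up with earlier results of these data known, and 36 of them were measured among the 11800 genes that have a probe set of their own on the array, while Chaf1a was not analysed here. Each gene was followed by the probe set annotated to it alone that was brightest on average over the mammary gland (MG) arrays. The study asked how the MG of BALB/c mice, a strain prone to radiation-induced mammary cancer, and of C57BL/6 mice, a more resistant strain, respond to low and high doses of X-rays. Female virgin mice received 4 weekly whole-body fractions from 8 weeks of age, of 7.5 cGy in the low dose (LD) group, of 1.8 Gy in the high dose (HD) group, or sham exposures. The fourth MG pair, with its lymph node removed, was taken 4 hr or 1 month after the last exposure, and 1 array was made per mouse. For BALB/c there were 3 sham, 4 LD and 4 HD arrays at 4 hr and 3 sham, 2 LD and 4 HD arrays at 1 month. For C57BL/6 there were 3 sham, 4 LD and 4 HD arrays at 4 hr and 4 arrays of each dose at 1 month. Nucleated blood cells of 4 BALB/c and 4 C57BL/6 unirradiated females were profiled at 9 weeks of age. Whole glands were used, which hold fat, epithelium, stroma and immune cells together, and the mice were not synchronised for the estrous cycle.

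DNA replication begins at origins, which the origin recognition complex (Orc1, Orc2 and Orc6 are subunits) marks and where the Cdc7-Dbf4 kinase, Cdc45, the GINS complex and Topbp1 switch on the helicase. Polymerase alpha with primase lays down primers, the Rfc clamp loader sets the Pcna ring on them, and polymerases delta and epsilon copy the strands. Rpa coats single-stranded DNA, Fen1 trims the flaps of Okazaki fragments and Lig1 seals them. Ribonucleotide reductase (Rrm1 with Rrm2), thymidylate synthase (Tyms), thymidine kinase (Tk1), the dUTPase Dut and the pyrimidine synthesis enzyme Cad provide nucleotides. Chaf1b helps to deposit histones behind the fork, and Uhrf1 with Dnmt1 copies the methylation pattern onto the new strand. Many of these genes are transcribed around S phase, where E2F factors are known to act at their promoters, so their level in a tissue is widely used as a sign of dividing cells.

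The start regions of these genes were searched for letters known from cell cycle promoters. RefSeq windows of GRCm38.p6, 250 bases before to 50 after a start, were matched by symbol for 33 of the 37 listed genes (Rfc2, Prim2, Pole and Gins1 had none), with 42 windows in all. E2F-type letters (TTTCCCGC, TTTGGCGC, TTTCGCGC or TTTGCCGC on either strand) were in the windows of 9 of the 33 genes, or 27.3%, against 4.01% of 9433 genes on the array that had a window and 2.6% of all 27025 genes with one. The 9 genes were Dnmt1, Lig1, Orc1, Pola1, Pold1, Pole2, Rfc3, Topbp1 and Uhrf1. The CCAAT box was in 54.5% of the genes against 42.7% of the genes on the array, and the CHR letters (TTTGAA or TTCGAA) were in 21.2% against 17.4%. All were searched on both strands, and each motif was counted separately also where it overlapped another. A match describes the letters and not a site in use. Stretches of 230 bases, from 200 before to 30 after the start, are shown for 4 genes that the results return to. Uhrf1 (chr17:56304113-56304342, plus strand), a gene with wide differences between groups, Topbp1 (chr9:103305127-103305356, plus strand), which had the smallest p after LD in C57BL/6 at 1 month, and Rfc3 (chr5:151651179-151651408, minus strand) carry E2F-type letters, shown in capitals. Rrm2 (chr12:24708054-24708283, plus strand), the gene with the widest spread between arrays, carries none of the E2F-type letters in its window, and its CCAAT box is in capitals.
Uhrf1: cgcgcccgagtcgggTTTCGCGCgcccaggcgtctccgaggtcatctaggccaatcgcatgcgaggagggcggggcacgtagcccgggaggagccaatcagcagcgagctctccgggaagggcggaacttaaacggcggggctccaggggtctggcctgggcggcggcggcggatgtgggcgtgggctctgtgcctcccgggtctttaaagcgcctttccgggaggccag
Topbp1: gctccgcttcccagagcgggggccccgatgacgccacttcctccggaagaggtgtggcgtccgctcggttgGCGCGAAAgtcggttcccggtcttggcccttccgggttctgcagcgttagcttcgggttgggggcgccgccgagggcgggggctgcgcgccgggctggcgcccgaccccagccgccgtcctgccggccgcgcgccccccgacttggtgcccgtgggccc
Rfc3: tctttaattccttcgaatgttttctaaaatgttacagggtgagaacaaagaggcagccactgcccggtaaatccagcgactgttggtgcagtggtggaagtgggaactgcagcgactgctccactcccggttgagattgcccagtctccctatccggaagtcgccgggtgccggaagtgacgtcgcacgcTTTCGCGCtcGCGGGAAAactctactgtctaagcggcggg
Rrm2: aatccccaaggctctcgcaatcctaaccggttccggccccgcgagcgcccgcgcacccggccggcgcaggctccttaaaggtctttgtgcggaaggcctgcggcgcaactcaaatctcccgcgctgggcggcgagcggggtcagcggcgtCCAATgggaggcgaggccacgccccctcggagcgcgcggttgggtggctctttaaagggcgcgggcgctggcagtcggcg

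All values are log2 values after RMA, a normalization that sets the arrays of a tissue to a common distribution, and their differences are in log2 units. Array medians lay between 6.16 and 6.36 in the MG and between 4.61 and 4.70 in blood, and levels are compared only within a gene and a tissue. Adipocyte markers averaged 11.84 to 12.74 and luminal epithelial markers 6.78 to 9.94 on the MG arrays, and luminal markers averaged 3.62 to 5.01 in blood. On 9 of the 51 arrays the markers of another tissue lay more than 2 log2 units above the median array. They were 5 MG arrays with skeletal muscle transcripts (BALB/c sham 4 hr replicate 1, BALB/c LD 4 hr replicate 2, BALB/c HD 4 hr replicate 1, BALB/c HD 1 month replicate 3 and C57BL/6 sham 1 month replicate 2), BALB/c LD 4 hr replicate 1 with epidermal transcripts, BALB/c HD 1 month replicate 1 with B and T cell transcripts, and 1 blood array of each strain with liver transcripts. Each strain's MG arrays lay on a plate of their own, so plate and strain cannot be told apart in the MG. Within each plate the sham arrays lay in the lower-numbered columns and nearly all irradiated arrays in higher-numbered ones. Dose and plate column can therefore hardly be told apart, and a fit with the plate column cannot separate them.

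Mice of the same group differed widely in these genes. The mean of the 36 genes was 6.80, 6.70 and 6.22 on the BALB/c sham 4 hr arrays and 6.63, 6.27, 6.95 and 6.11 on the C57BL/6 sham 1 month arrays. The C57BL/6 sham 1 month arrays alone thus covered most of the range of all MG arrays, which was 5.99 to 6.95. The standard deviation (SD) within groups, pooled over the MG, was 0.73 for Rrm2, 0.70 for Tk1 and 0.63 for Uhrf1, whose products are tied to S phase, and 0.46 for Dbf4 and 0.42 for Lig1. It was 0.13 for the clamp loader subunit Rfc1, 0.14 for Pold2 and Orc1 and 0.15 for Rfc2 and Rpa1.

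**Figure D1:**
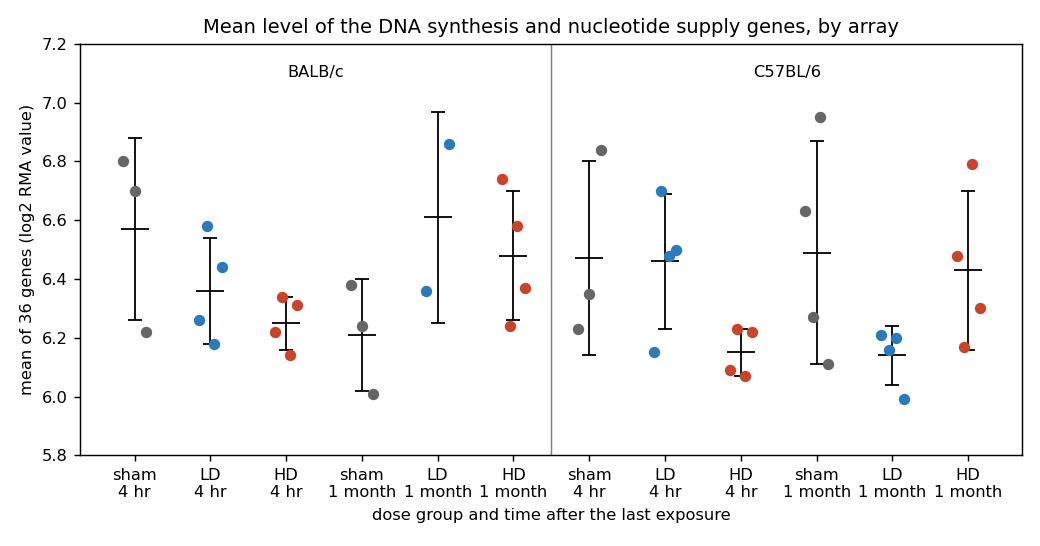
Mean log2 RMA value of the 36 genes on each MG array (points) by dose group and time, with the group mean (bar) and SD (whiskers), BALB/c on the left and C57BL/6 on the right. Sham groups spread from 6.01 to 6.80 in BALB/c and from 6.11 to 6.95 in C57BL/6, while the HD 4 hr arrays of both strains and the C57BL/6 LD 1 month arrays lie close together between 5.99 and 6.34.

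At 4 hr after HD exposure, most of these genes had lower values than in sham MG in both strains, and Lig1 in BALB/c was the only one called, that is, at an adjusted p under 0.05 in limma with Benjamini-Hochberg adjustment over all probe sets. In BALB/c, 5.91% of all genes were called in this comparison. Lig1, the ligase that seals Okazaki fragments, read 5.49, 5.47, 5.51 and 5.62 on the HD arrays and 7.02, 6.75 and 5.91 on the sham arrays. The 2 groups did not overlap, and the 4 HD arrays lay close together. The log2 fold change was −1.03 (SE 0.28, adjusted p = 0.0382), with a 95% interval from −1.61 to −0.46. The call was lost without any 1 of the 4 HD arrays or without sham replicate 1 or 2 (adjusted p between 0.0575 and 0.161), without the arrays that held transcripts of another tissue (−0.80, adjusted p = 0.208), with the plate column in the fit (adjusted p = 0.38) with only these groups in the fit (adjusted p = 0.0704) and with the sham arrays of both times pooled (−0.67, adjusted p = 0.0683), an alternative chosen after seeing the data. Sham replicate 3 read lowest of the sham arrays, and without it 8 of the genes were called, Uhrf1, Tk1, Lig1, Pcna, Dnmt1, Pole2, Rrm2 and Rpa3. The share of all genes called without that array is not given here, and the 5.91% belongs to the fit with all arrays.

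The genes had a median log2 fold change of −0.29 at 4 hr after HD exposure in BALB/c, against −0.0039 over all genes, and 26 of 36 were below 0. At an unadjusted p under 0.05, 10 of the 36 were lower, where 11.8% of all genes were, and Orc2 was higher. In 5 of the 36 every HD array lay below every sham array, where 10% of all genes did. The count of 10 became 4 without sham replicate 1 and 19 without sham replicate 3, and the median moved to −0.12 and −0.44. With both sham times pooled the median was −0.16 and the count 5, and without the arrays holding transcripts of another tissue they were −0.13 and 4. By role, the median was −0.68 over the 3 genes of chromatin assembly and maintenance methylation, −0.58 over the 6 nucleotide supply genes, −0.23 over the 5 genes of flap removal, ligation and single-strand binding, −0.21 over the 8 polymerase and primase genes, −0.19 over the 6 clamp and clamp loader genes and −0.083 over the 8 genes of origin recognition and firing. Rrm2, the regulated subunit of ribonucleotide reductase, read 4.81, 5.79, 4.53 and 5.12 after HD and 7.11, 7.05 and 5.77 in sham MG. The highest HD array lay just above the lowest sham array, and the log2 fold change of −1.58 (SE 0.51, adjusted p = 0.0776) was not called. Uhrf1 differed by −1.13 (SE 0.37, adjusted p = 0.0816) and Tk1 by −1.02 (SE 0.38, adjusted p = 0.13), also without a call. The Pcna clamp differed by −0.46 (SE 0.17, adjusted p = 0.137), and the loader subunits Rfc1, Rfc2 and Rfc4 lay between −0.029 and 0.047.

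C57BL/6 mice gave a median of −0.28 at 4 hr after HD exposure against −0.0071 over all genes, with 33 of 36 genes below 0. None of the 36 was called, where 0.873% of all genes were. At an unadjusted p under 0.05, 6 were lower (8.47% of all genes), and in 8 the groups did not overlap with HD below sham (7.61% of all genes). Chaf1b, a subunit of the histone chaperone CAF-1, read 4.39, 4.32, 4.44 and 4.34 after HD and 4.68, 4.58 and 4.91 in sham MG. Its arrays did not overlap, with a log2 fold change of −0.35 (SE 0.12, adjusted p = 0.215). Dut, which removes dUTP before it is built into DNA, read 5.04, 5.30, 5.31 and 5.67 after HD and 5.74, 5.84 and 6.54 in sham MG. These arrays also did not overlap. The log2 fold change of Dut was −0.71 (SE 0.27, adjusted p = 0.249). Lig1 read 5.24, 5.73, 5.47 and 5.57 against 5.91, 6.10 and 6.83, again with no overlap, and its log2 fold change was −0.78 (SE 0.30, adjusted p = 0.263). The count of 6 became 12 without sham replicate 1, 3 without HD replicate 3 and 0 without sham replicate 3, the sham array with the highest mean of the genes, and without that array the median was −0.10. With the sham arrays of both times pooled, Lig1, Dut, Dnmt1 and Cad were called (adjusted p between 0.00937 and 0.0449). The share of all genes called with pooled sham arrays is not given here, and the 0.873% belongs to the unpooled comparison.

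No strain difference was detectable in this response. The strain difference of the HD response at 4 hr, BALB/c minus C57BL/6, had a median of 0.029 over the 36 genes, with 0 called by limma, 0 at an unadjusted p under 0.05 in either direction, and 0% of all genes called. The smallest p were those of Rpa1, a subunit of the single-strand binding protein, with 0.26 (SE 0.16, adjusted p = 0.83), of Orc6 with 0.35 (SE 0.21, adjusted p = 0.833) and of Orc2 with 0.32 (SE 0.21, adjusted p = 0.853). For Rpa1 the HD arrays read 9.13, 9.28, 9.11 and 9.20 in BALB/c and 9.03, 9.05, 8.74 and 8.91 in C57BL/6, and the sham arrays 9.20, 9.15 and 8.98 against 9.09, 9.03 and 9.27. For Orc2 the HD arrays read 7.34, 7.19, 7.42 and 7.70 in BALB/c and 7.60, 7.22, 7.34 and 7.02 in C57BL/6, and the sham arrays 7.14, 6.74 and 7.38 against 6.93, 7.62 and 7.31, which overlap in both strains. For Orc6 the HD arrays read 6.0, 5.87, 6.27 and 6.47 in BALB/c and 6.36, 6.15, 6.41 and 6.54 in C57BL/6. The 95% intervals of these differences ran from −0.061 to 0.59 for Rpa1 and from −0.10 to 0.74 for Orc2.

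Other measures moved with the HD 4 hr groups. Cdkn1a, the p53 target that holds cells before S phase, rose by 3.36 (SE 0.31, adjusted p = 6.17e-06) in BALB/c and by 2.54 (SE 0.42, adjusted p = 0.0029) in C57BL/6, and its log2 fold change after LD at 4 hr was 0.31 and 0.28 without a call. The 14 luminal epithelial markers averaged 6.78 to 8.13 on the BALB/c HD 4 hr arrays against 8.50 to 9.02 on the sham arrays, and 8.14 to 8.80 against 9.18 to 9.27 in C57BL/6. They were lower on every HD array of both strains. The 7 myoepithelial markers averaged 7.63 to 8.13 against 8.21 to 8.73 in C57BL/6, also without overlap, and 7.40 to 8.22 against 8.13 to 8.65 in BALB/c. The 5 adipocyte markers averaged 12.51 to 12.68 on the BALB/c HD arrays, above the 12.20 to 12.36 of sham. In C57BL/6 they overlapped, at 12.35 to 12.62 against 12.35 to 12.53. The 8 neutrophil markers averaged 5.51 to 5.86 on the C57BL/6 HD arrays, above the 5.30 to 5.46 of sham. In BALB/c they overlapped, at 5.70 to 5.78 against 5.45 to 6.04. Erythroid precursor markers lay above sham without overlap in C57BL/6 alone, and hepatocyte markers in BALB/c alone. The part of these markers in the lower values of the replication genes was not tested. In whole tissue, fewer cells of a type and less RNA per cell cannot be told apart.

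**Figure D2:**
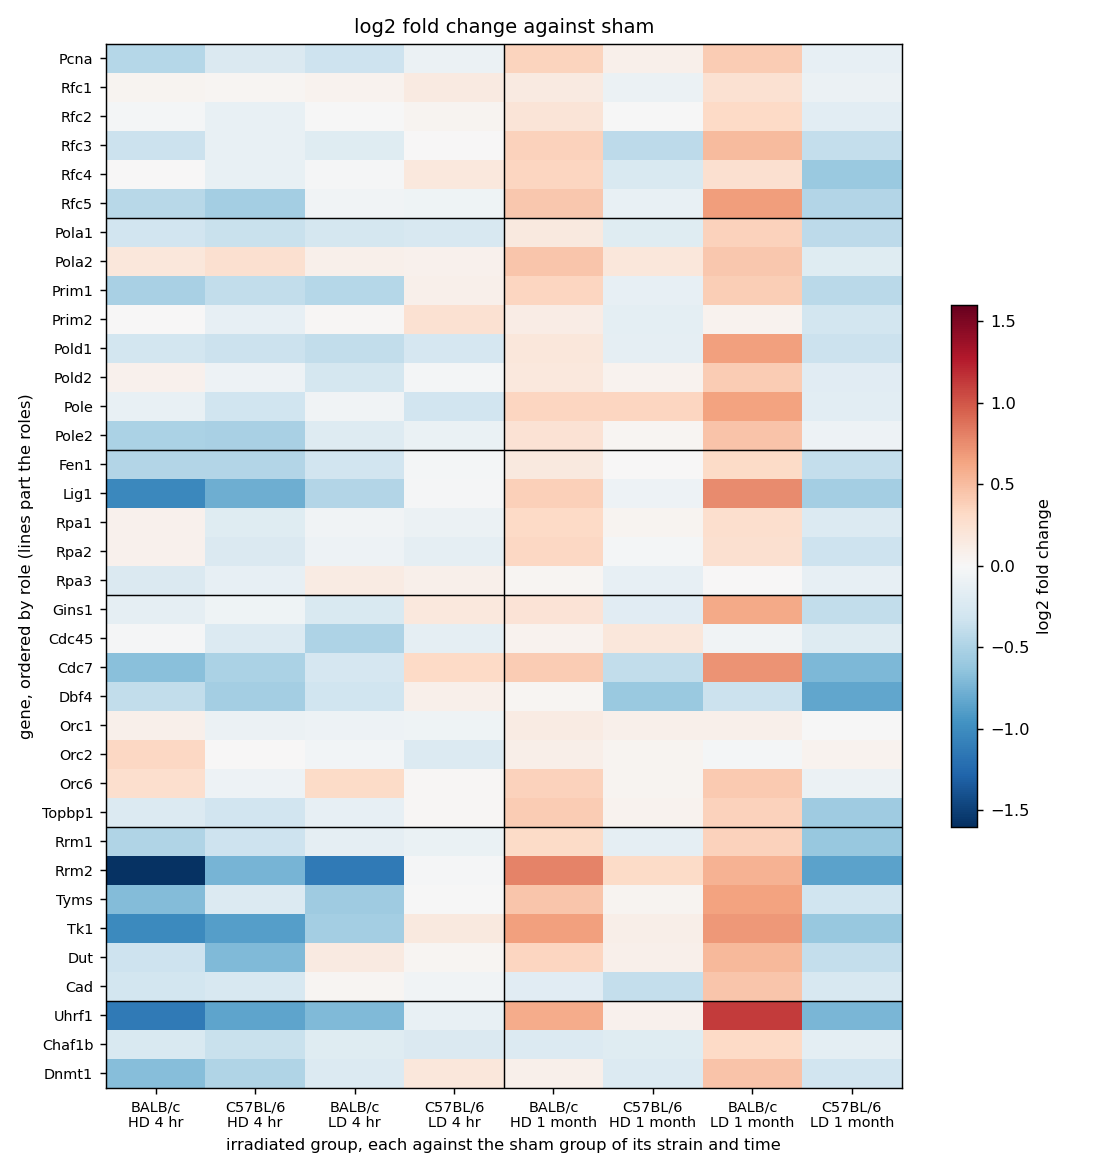
Log2 fold change of each of the 36 genes (lines, grouped by role) against the sham group of the same strain and time, for the 8 irradiated groups (columns), from blue for lower through white for no difference to red for higher than sham. Both HD 4 hr columns are mostly blue, the BALB/c 1 month columns mostly red and the C57BL/6 LD 1 month column blue in 35 of 36 genes.

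After LD exposure none of the genes was called at 4 hr in either strain. In BALB/c the median was −0.20 against −0.0083 over all genes, with 29 of 36 below 0 and 0 called by limma, where 0% of all genes were called, and 6 lower at an unadjusted p under 0.05 (4.35% of all genes). Luminal markers averaged 9.10 to 9.29 on these LD arrays, above the 8.50 to 9.02 of the sham arrays, and their part in the lower values was not tested. Cdc45, the partner of GINS in the active helicase, read 5.02, 5.24, 4.65 and 4.96 after LD and 5.51, 5.57 and 5.30 in sham MG. Every LD array lay below every sham array, and the log2 fold change was −0.49 (SE 0.17, adjusted p = 0.357). The primase subunit Prim1 read 6.27, 6.67, 6.07 and 6.65 against 7.12, 6.70 and 6.79, without overlap and with a log2 fold change of −0.46 (SE 0.18, adjusted p = 0.435). Tyms, which makes thymidylate, read 6.24, 6.53, 6.0 and 6.19 against 7.09, 6.90 and 6.42. Its highest LD array lay above the lowest sham array, and the log2 fold change was −0.56 (SE 0.23, adjusted p = 0.457). This was the value of the brightest of the 4 Tyms probe sets, and those of the others are not given here. The median was −0.072, −0.11 and −0.36 when sham replicates 1, 2 and 3 were left out in turn, and −0.052 with both sham times pooled.

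The C57BL/6 median at 4 hr after LD was −0.017 against −0.0032 over all genes. No gene of the 36 was called by limma or lay at an unadjusted p under 0.05, and 0% of all genes were called. The primase subunit Prim2 differed by 0.25 (SE 0.13, adjusted p = 0.994), Chaf1b by −0.23 (SE 0.12, adjusted p = 0.994) and Orc2 by −0.22 (SE 0.14, adjusted p = 0.997), the smallest p of the 36. Prim2 read 5.86, 6.04, 5.77 and 5.96 after LD and 5.78, 5.44 and 5.77 in sham MG. Chaf1b read 4.27, 4.83, 4.31 and 4.57 against 4.68, 4.58 and 4.91. Orc2 read 7.28, 6.90, 7.02 and 7.05 against 6.93, 7.62 and 7.31. The groups overlapped in all 3 genes. The strain difference of the LD response at 4 hr had a median of −0.14, with 0 genes called by limma, 0 at an unadjusted p under 0.05 and 0% of all genes called. Its smallest p were those of Gins1 with −0.42 (SE 0.25, adjusted p = 0.9998), Pold2 with −0.24 (SE 0.16, adjusted p = 0.9998) and Cdc7 with −0.59 (SE 0.39, adjusted p = 0.9998). Gins1, a subunit of GINS, read 5.38, 5.47, 4.92 and 5.24 after LD and 5.68, 5.71 and 5.12 in sham MG in BALB/c and 5.43, 5.79, 5.35 and 5.70 against 5.45, 5.27 and 5.47 in C57BL/6. In each strain the LD and sham arrays of Gins1 overlapped. Pold2 read 7.13, 7.04, 7.26 and 7.13 after LD and 7.46, 7.43 and 7.36 in sham MG in BALB/c and 7.47, 7.46, 7.30 and 7.44 against 7.33, 7.36 and 7.66 in C57BL/6. Cdc7 read 5.49, 5.87, 4.99 and 5.73 after LD in BALB/c and 5.29, 5.82, 6.01 and 5.29 in C57BL/6, where sham MG read 5.21, 4.98 and 5.66.

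Set directly against LD at 4 hr, HD gave a median of −0.075 (BALB/c) and −0.22 (C57BL/6), while the medians over all genes were 0.018 and −0.0013. None of the 36 was called by limma in either strain, where 7.89% of all genes were in BALB/c and 1.58% in C57BL/6. At an unadjusted p under 0.05, 3 of the 36 were higher and 4 lower in BALB/c, where 11.8% and 12.9% of all genes were, and 5 were lower in C57BL/6, where 11.4% of all genes were. These shares were near those over all genes. In BALB/c, Pold2, the small subunit of polymerase delta, read 7.24, 7.57, 7.54 and 7.58 after HD and 7.13, 7.04, 7.26 and 7.13 after LD, with a log2 fold change of 0.34 (SE 0.11, adjusted p = 0.0604). Only the lowest HD array reached into the LD range. Rpa3 read 8.0, 7.95, 7.82 and 8.14 after HD and 8.20, 8.37, 8.42 and 8.36 after LD, without overlap and with a log2 fold change of −0.36 (SE 0.12, adjusted p = 0.0715). Cdc45 read 5.31, 5.43, 5.43 and 5.58 against 5.02, 5.24, 4.65 and 4.96, without overlap, and was higher after HD by 0.47 (SE 0.16, adjusted p = 0.0721). Without HD replicate 1, the array with muscle transcripts, Pold2 was called (0.42, adjusted p = 0.0244), and without every array that held transcripts of another tissue it was not (0.37, adjusted p = 0.223).

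In C57BL/6 the maintenance methyltransferase Dnmt1 read 7.21, 7.42, 6.93 and 7.46 after HD and 7.74, 8.16, 7.97 and 7.82 after LD, without overlap, and differed by −0.67 (SE 0.18, adjusted p = 0.0634). It was called without HD replicate 4 (adjusted p = 0.044) or LD replicate 1 (adjusted p = 0.0457). Prim2 read 5.52, 5.53, 5.56 and 5.52 after HD against 5.86, 6.04, 5.77 and 5.96 after LD without overlap, and differed by −0.38 (SE 0.12, adjusted p = 0.0999). Dut, given above for HD, read 5.72, 6.49, 5.87 and 6.21 after LD, above all 4 HD arrays, with a log2 fold change of −0.74 (SE 0.25, adjusted p = 0.125). Cdc7 and Lig1 had log2 fold changes of −0.82 and −0.77 in the same comparison.

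One month after LD exposure most of the values lay above sham in BALB/c and below sham in C57BL/6. In BALB/c, with 2 LD arrays, 33 of the 36 genes were above sham and the median was 0.41 against 0.032 over all genes. In C57BL/6, 35 of 36 were below sham, with a median of −0.32 against 0.00085. No gene was called by limma in either strain, where 0% of all genes were called in both. At an unadjusted p under 0.05, 12 genes were higher in BALB/c (4.58% of all genes) and 9 lower in C57BL/6 (7.79% of all genes). Groups did not overlap for 16 genes higher in BALB/c (15.7% of all genes, with 2 arrays against 3) and for 2 genes lower in C57BL/6 (4.26% of all genes), the clamp loader subunit Rfc4 and Rpa1.

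The BALB/c counts rest on few arrays. Leaving out LD replicate 1 turned the 12 into 21 and the median into 0.63, and leaving out LD replicate 2 turned them into 1 and 0.17. Leaving out sham replicate 3 gave a count of 4. When 1 LD array is left out, the other is assumed to vary like the rest of the strain's arrays. With the sham arrays of both times pooled the median was 0.24 and the count 6. The 9 of C57BL/6 became 5 when LD replicate 4 was dropped, 2 when sham replicate 3 was dropped and 21 when sham replicate 4 was dropped, with a median of −0.18 in the second case. Sham replicates 3 and 4 had the highest and the lowest mean of the 36 genes in that group, and pooling the sham times left the C57BL/6 median at −0.325 with a count of 14.

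By role in BALB/c, the median at 1 month after LD was 0.53 over the nucleotide supply genes, 0.46 over chromatin assembly and maintenance methylation, 0.42 over polymerases and primase, 0.36 over clamp and clamp loader, 0.27 over flap removal, ligation and single-strand binding and 0.22 over origin recognition and firing. For C57BL/6 the same roles had medians of −0.49, −0.30, −0.24, −0.27, −0.33 and −0.30. The genes described next include 10 that the study had named from its tables of 1 month genes, which drew on these arrays, so their directions are not independent evidence. The paper states more mice per array group than the 2 BALB/c LD arrays at hand here, so its list may rest on further arrays.

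Among the genes of origin firing, Cdc7, the kinase that starts the helicase, read 5.84 and 6.45 after LD and 5.73, 5.33 and 5.21 in sham MG in BALB/c. In C57BL/6 it read 5.40, 4.71, 5.15 and 4.88 after LD and 6.60, 5.40, 6.05 and 4.96 in sham MG. The BALB/c arrays did not overlap and the C57BL/6 arrays did. The log2 fold changes were 0.72 (SE 0.24, adjusted p = 0.638) and −0.72 (SE 0.28, adjusted p = 0.294). Gins1 read 5.44 and 6.16 after LD and 5.28, 5.29 and 4.99 in sham MG in BALB/c, and 4.74, 5.03, 5.25 and 5.07 against 5.50, 5.51, 5.69 and 4.95 in C57BL/6. Both BALB/c LD arrays lay above their sham arrays, and in C57BL/6 sham replicate 4 lay among the LD arrays. The log2 fold changes of Gins1 were 0.61 (SE 0.23, adjusted p = 0.649) and −0.39 (SE 0.15, adjusted p = 0.283). Topbp1, which helps to load Cdc45 and whose promoter is shown above, read 7.29, 7.37, 7.13 and 6.90 after LD and 8.03, 7.57, 8.03 and 7.34 in sham MG in C57BL/6. Only the highest LD array reached the lowest sham array, with a log2 fold change of −0.57 (SE 0.17, adjusted p = 0.2). In BALB/c Topbp1 read 7.25 and 7.98 after LD against 7.41, 7.27 and 7.06, with a log2 fold change of 0.36 (SE 0.25, adjusted p = 0.827). The origin subunits Orc1 and Orc2 had log2 fold changes of 0.082 and −0.035 in BALB/c and of −0.0025 and 0.052 in C57BL/6.

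Of the polymerases, Pold1, the catalytic subunit of polymerase delta, read 5.55 and 6.08 after LD and 5.45, 5.14 and 4.86 in sham MG in BALB/c, without overlap. In C57BL/6 it read 5.39, 5.17, 5.17 and 4.75 against 5.65, 5.35, 5.89 and 4.99, and these arrays overlapped. The log2 fold changes were 0.66 (SE 0.21, adjusted p = 0.631) and −0.35 (SE 0.17, adjusted p = 0.397). Its partner Pold2 read 7.40 and 7.72 after LD and 7.31, 7.30 and 6.86 in sham MG in BALB/c, again without overlap, with a log2 fold change of 0.40 (SE 0.14, adjusted p = 0.641). Prim1 read 6.33 and 6.90 after LD against 6.45, 6.33 and 5.87 in sham MG in BALB/c and 6.11, 5.95, 6.26 and 6.23 against 6.67, 6.19, 7.40 and 6.02 in C57BL/6. The arrays overlapped in both strains, and the log2 fold changes were 0.40 (SE 0.22, adjusted p = 0.764) and −0.43 (SE 0.28, adjusted p = 0.525). A second probe set of Prim1 gave 0.59 in BALB/c and −0.44 in C57BL/6. The clamp loader subunit Rfc5 read 5.29 and 5.82 after LD and 5.06, 4.85 and 4.75 in sham MG in BALB/c, and 5.27, 5.31, 4.96 and 4.65 against 5.46, 5.18, 6.13 and 5.27 in C57BL/6. The BALB/c arrays alone did not overlap, and the log2 fold changes were 0.67 (SE 0.26, adjusted p = 0.649) and −0.47 (SE 0.24, adjusted p = 0.414). Rfc4 read 6.30, 6.38, 6.04 and 6.31 after LD and 6.71, 6.74, 7.40 and 6.59 in sham MG in C57BL/6, where every LD array lay below every sham array, and differed by −0.60 (SE 0.19, adjusted p = 0.214).

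Of the nucleotide supply genes, Rrm2 read 5.22 and 5.99 after LD and 5.36, 5.0 and 4.81 in sham MG in BALB/c. In C57BL/6 the 4 LD arrays read 4.70, 4.69, 4.58 and 4.61 and the sham arrays read 6.0, 4.98, 6.44 and 4.61. The LD arrays were close together with the lowest sham array among them, and the log2 fold changes were 0.55 (SE 0.61, adjusted p = 0.909) and −0.86 (SE 0.46, adjusted p = 0.438). Against both sham times pooled, the BALB/c value of Rrm2 turned to −0.24. Tk1, which salvages thymidine, read 4.86 and 6.15 after LD against 5.01, 4.49 and 4.93 in sham MG in BALB/c and 4.63, 4.93, 5.0 and 4.18 against 5.68, 4.22, 6.88 and 4.39 in C57BL/6. All of these overlapped, with log2 fold changes of 0.70 (SE 0.46, adjusted p = 0.809) and −0.60 (SE 0.51, adjusted p = 0.646). Tyms read 6.59 and 6.96 after LD against 6.72, 6.15 and 5.52 in sham MG in BALB/c. In C57BL/6 it read 6.14, 5.96, 6.01 and 5.76 against 6.46, 5.59, 7.18 and 5.91. There was overlap in both strains, with log2 fold changes of 0.65 (SE 0.28, adjusted p = 0.688) and −0.32 (SE 0.26, adjusted p = 0.64). These were the values of its brightest probe set. The other Tyms probe sets gave −0.20, −0.099 and −0.16 in BALB/c and −0.13, −0.0033 and 0.059 in C57BL/6. Cad, which carries out the first steps of pyrimidine synthesis, read 7.51 and 7.95 after LD against 7.57, 7.57 and 6.73 in sham MG in BALB/c and 7.94, 7.42, 7.77 and 7.38 against 7.63, 8.09, 8.10 and 7.74 in C57BL/6. Its groups overlapped in both strains, and its log2 fold changes were 0.44 (SE 0.24, adjusted p = 0.758) and −0.26 (SE 0.13, adjusted p = 0.399). A second probe set of Cad gave 0.65 (SE 0.15, adjusted p = 0.57) in BALB/c and −0.37 (SE 0.13, adjusted p = 0.242) in C57BL/6.

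Uhrf1, the reader of hemimethylated DNA, read 4.84 and 6.72 after LD and 4.85, 4.83 and 4.31 in sham MG in BALB/c. The lower LD array lay within the sham range, so the log2 fold change of 1.11 (SE 0.44, adjusted p = 0.66) rested on the other. In C57BL/6 it read 4.82, 4.78, 4.58 and 4.67 after LD and 6.01, 4.89, 6.61 and 4.28 in sham MG. The LD arrays were close together while the sham arrays spread on both sides of them, and the log2 fold change was −0.74 (SE 0.45, adjusted p = 0.496). Lig1 had log2 fold changes of 0.76 (SE 0.33, adjusted p = 0.69) and −0.55 (SE 0.28, adjusted p = 0.42), and Dnmt1 of 0.46 (SE 0.26, adjusted p = 0.769) and −0.30 (SE 0.18, adjusted p = 0.485).

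**Figure D3:**
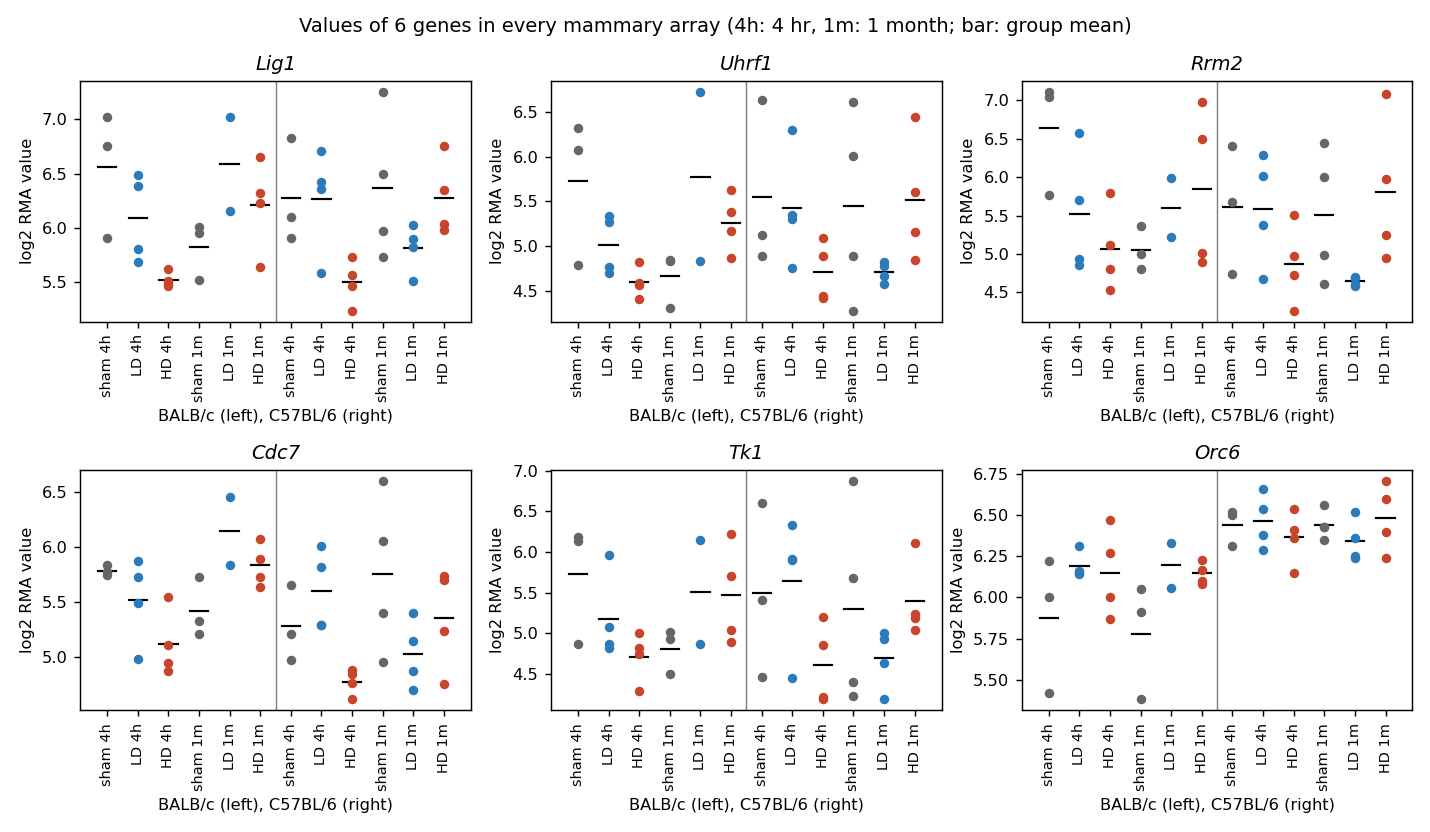
Log2 RMA value of Lig1, Uhrf1, Rrm2, Cdc7, Tk1 and Orc6 on every MG array (points) with the group mean (bar), BALB/c left and C57BL/6 right of the line in each panel. Sham groups spread widely for Uhrf1, Rrm2 and Tk1, the HD 4 hr arrays of Lig1 lie below sham 4 hr in both strains, and Orc6 is lower on the BALB/c than on the C57BL/6 sham arrays.

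The difference between the strains was tested directly as the strain difference of the LD response at 1 month, BALB/c minus C57BL/6. Its median was 0.73 over the 36 genes against 0.040 over all genes, and 35 of 36 were above 0. None of the 36 was called by limma (smallest adjusted p = 0.306), where 0% of all genes were, and 24 lay at an unadjusted p under 0.05 in this direction, as 5.9% of all genes did. By role, 6 of 8 polymerase and primase genes, 5 of 6 clamp and clamp loader genes, 4 of 6 nucleotide supply genes, 4 of 8 origin genes, 3 of 3 genes of chromatin assembly and maintenance methylation and 2 of 5 genes of flap removal, ligation and single-strand binding were among the 24. The 3 smallest p were those of Gins1 with 1.0 (SE 0.27, unadjusted p = 0.000718, adjusted p = 0.306), Pold1 with 1.01 (SE 0.28, unadjusted p = 0.00102, adjusted p = 0.312) and Cdc7 with 1.44 (SE 0.41, unadjusted p = 0.00131, adjusted p = 0.36). Uhrf1 had a difference of 1.85 with a 95% interval from 0.45 to 3.24, and Rrm2 one of 1.41 with an interval from −0.21 to 3.03 that includes 0. Orc2 was the gene below 0, with −0.087.

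**Figure D4:**
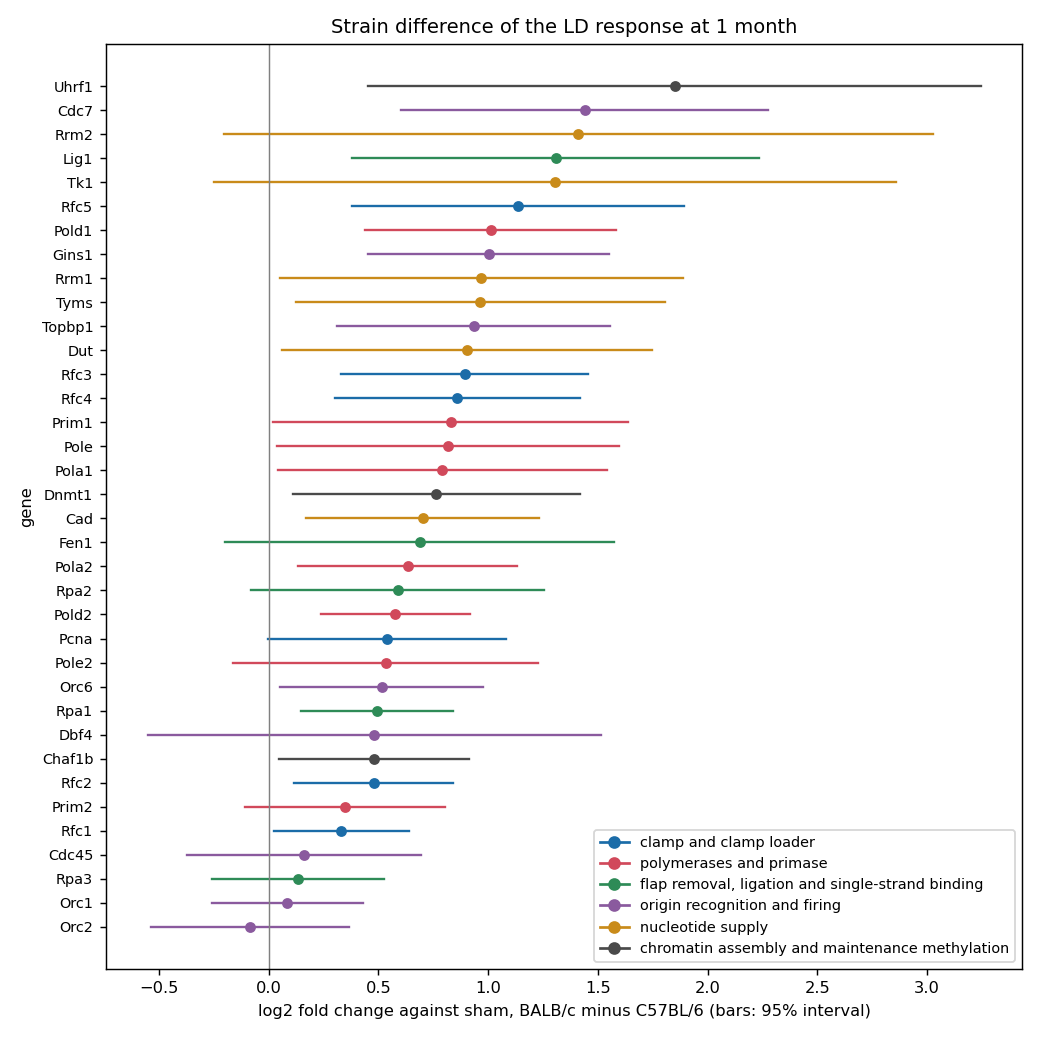
Strain difference of the LD response at 1 month for each of the 36 genes, as the log2 fold change against sham in BALB/c minus that in C57BL/6 (points) with its 95% interval (bars), coloured by role. The points of 35 genes lie above 0, from 0.085 for Orc1 to 1.85 for Uhrf1, and the intervals of 24 exclude 0.

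These differences changed with single arrays and with the probe set. The count of 24 was 7 without BALB/c LD replicate 2, 13 without BALB/c sham replicate 3 and 14 without C57BL/6 sham replicate 3, and the median lay between 0.50 and 0.92 over all arrays left out in turn. With the sham arrays of both times pooled the median was 0.49 and the count 18. Of the 17 genes with several probe sets, the probe sets had opposite signs in this comparison for 3 and differed by more than 1 log2 unit for Cdc7, Tyms and Uhrf1. A second probe set gave larger differences than the brightest for genes such as Cad (1.02, adjusted p = 0.14, not called), Prim1 (1.03), Rfc3 (0.90) and Rfc4 (0.89). It gave smaller ones for others, among them Pola2 (−0.0022), Dut (0.40) and Rrm1 (0.49). It also gave 0.13 for Cdc7, 0.49 for Uhrf1 and 0.51 for Rrm2, and the 3 other probe sets of Tyms gave −0.065, −0.096 and −0.22. The differences in Cdc7 and Tyms were thus those of their brightest probe sets. The 14 luminal markers averaged 8.97 to 9.42 on the BALB/c LD arrays against 9.10 to 9.25 in sham MG, and 9.24 to 9.57 against 9.23 to 9.94 in C57BL/6, so both pairs of groups overlapped. The 7 myoepithelial markers averaged 8.15 to 8.48 on the C57BL/6 LD arrays, below the 8.59 to 9.33 of the sham arrays, while in BALB/c they averaged 8.51 to 8.78 against 8.25 to 8.74. Their part in the lower values of the C57BL/6 replication genes was not tested.

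One month after HD exposure the BALB/c genes also lay above sham. The median was 0.31 against 0.021 over all genes and 34 of 36 were above 0, with 0 called by limma (0.0169% of all genes) and 4 higher at an unadjusted p under 0.05 (4.88% of all genes), Rpa1, Pola2, Rfc4 and Rfc3. The LD and HD comparisons of a strain and time share their sham arrays, here 3, and the differences between times and strains use the same arrays again. Rpa1 read 9.60, 9.11, 9.09 and 9.03 after HD and 8.81, 8.97 and 8.90 in sham MG. Every HD array lay above the sham arrays, the highest being the array with B and T cell transcripts, and the log2 fold change was 0.32 (SE 0.12, adjusted p = 0.352). Pola2, a subunit of polymerase alpha, read 7.35, 7.44, 7.02 and 7.49 against 6.96, 6.92 and 6.74, without overlap, with a log2 fold change of 0.45 (SE 0.17, adjusted p = 0.357). Rfc4 read 7.0, 6.52, 6.91 and 6.81 against 6.43, 6.58 and 6.39, with 1 HD array inside the sham range and a log2 fold change of 0.34 (SE 0.14, adjusted p = 0.386). The median was 0.11 without the arrays that held transcripts of another tissue, 0.20 without HD replicate 1, 0.17 without sham replicate 3 and 0.086 with both sham times pooled. Luminal markers averaged 7.89 to 8.73 on the BALB/c HD 1 month arrays, below the 9.10 to 9.25 of the sham arrays, and their part in the result was not tested.

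The C57BL/6 median at 1 month after HD was −0.021 against −0.0017 over all genes, with 0 of the 36 called by limma (0.983% of all genes) and 2, Cad and Rfc3, lower at an unadjusted p under 0.05 (10.1% of all genes). Cad read 7.37, 7.40, 7.73 and 7.52 after HD and 7.63, 8.09, 8.10 and 7.74 in sham MG, with 1 HD array inside the sham range and a log2 fold change of −0.38 (SE 0.13, adjusted p = 0.127). Rfc3 read 6.0, 5.62, 6.05 and 5.99 against 6.38, 6.25, 6.69 and 6.04. Here only the highest HD array reached the lowest sham array, and the log2 fold change was −0.42 (SE 0.17, adjusted p = 0.198). Dbf4, the activator of Cdc7, read 5.39, 4.96, 5.96 and 5.39 against 6.10, 5.38, 7.10 and 5.52, with a log2 fold change of −0.60 (SE 0.33, adjusted p = 0.366). The strain difference of the HD response at 1 month had a median of 0.31 with 34 of 36 above 0. None was called by limma, where 0% of all genes were, and 3 were higher at an unadjusted p under 0.05 (2.59% of all genes), Rfc3 with 0.79 (SE 0.25, adjusted p = 0.852), Rfc4 with 0.59 (SE 0.25, adjusted p = 0.908) and Cdc7 with 0.80 (SE 0.37, adjusted p = 0.908). Rfc3 read 6.54, 6.13, 6.52 and 6.18 after HD in BALB/c and Rfc4 read 6.65, 6.36, 6.91 and 6.50 after HD in C57BL/6. Cdc7 read 6.07, 5.64, 5.73 and 5.89 after HD in BALB/c and 5.70, 4.76, 5.74 and 5.24 in C57BL/6. The median of this strain difference was 0.16 without C57BL/6 sham replicate 3 and 0.13 with both sham times pooled.

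In BALB/c the HD response was also set between the times. Taken as the response at 1 month minus that at 4 hr, it had a median of 0.46 against 0.013 over all genes, with 35 of 36 above 0, 0 called by limma (0.119% of all genes) and 12 higher at an unadjusted p under 0.05 (4.99% of all genes). Cdc7 had a difference of 1.07 (SE 0.29, adjusted p = 0.315), Lig1 one of 1.42 (SE 0.39, adjusted p = 0.326) and Tyms one of 1.13 (SE 0.33, adjusted p = 0.379). The Tyms value was that of its brightest probe set, and its 3 other probe sets gave −0.029, −0.19 and 0.25. A second probe set of Cdc7 gave 0.41. Lig1 read 6.65, 5.64, 6.32 and 6.23 on the HD 1 month arrays and 6.01, 5.95 and 5.52 on the sham 1 month arrays, which overlap, whereas the 4 hr arrays given above did not. Cdc7 read 5.11, 5.55, 4.88 and 4.95 at 4 hr after HD against 5.77, 5.84 and 5.75 in sham MG and 6.07, 5.64, 5.73 and 5.89 at 1 month against 5.73, 5.33 and 5.21. Tyms read 5.73, 6.33, 6.27 and 6.13 at 4 hr after HD and 6.78, 6.44, 6.76 and 6.30 at 1 month. Without the arrays that held transcripts of another tissue the median was 0.19 and the count 1, and without sham 4 hr replicate 3 the count was 21. In C57BL/6 the median of the same difference was 0.19, with 0 called by limma (0.0508% of all genes) and Dut alone higher at an unadjusted p under 0.05 (3.15% of all genes), with 0.79 (SE 0.37, adjusted p = 0.968). A second probe set of Dut gave −0.22. Dut read 6.19, 5.53, 6.67 and 5.91 at 1 month after HD and 6.35, 5.72, 6.44 and 5.46 in sham MG. Pole2, a subunit of polymerase epsilon, had a difference of 0.55 (SE 0.31, adjusted p = 0.993) and Cdc45 one of 0.41 (SE 0.23, adjusted p = 0.993). Pole2 read 4.78, 4.97, 4.95 and 5.71 at 4 hr and 5.61, 5.27, 6.11 and 5.44 at 1 month after HD, and Cdc45 5.34, 4.92, 5.16 and 4.98 against 5.54, 5.11, 5.42 and 5.06. The highest 1 month HD values of Dut (6.67) and Pole2 (6.11) were on replicate 3, the array with raised B and T cell markers.

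The sham arrays of both times entered these differences. In BALB/c the mean over the 36 genes was 6.01 to 6.38 on the sham 1 month arrays and 6.22 to 6.80 on the sham 4 hr arrays, so the groups overlapped. The group means at 1 month were below those at 4 hr for 34 of 36 genes, with a median of −0.30 against −0.015 over all genes. None was called by limma (0% of all genes), and 9 were lower at an unadjusted p under 0.05 (3.86% of all genes). Prim1 read 6.45, 6.33 and 5.87 at 1 month and 7.12, 6.70 and 6.79 at 4 hr, without overlap and with a difference of −0.65 (SE 0.19, adjusted p = 0.606). Rrm2, with the sham values given above, differed by −1.59 (SE 0.54, adjusted p = 0.662) without overlap, and Rfc3 read 6.34, 5.94 and 5.64 against 6.71, 6.68 and 6.14 and differed by −0.54 (SE 0.18, adjusted p = 0.645). The count of 9 ranged from 2 without sham 1 month replicate 3 to 18 without sham 4 hr replicate 3, and was 3 and 4 without sham 4 hr replicates 1 and 2 and 15 without sham 1 month replicate 1. In C57BL/6 sham MG the median difference between the times was −0.00053, and none of the 36 was called (3.03% of all genes). Cad read 7.63, 8.09, 8.10 and 7.74 at 1 month and 7.33, 7.39 and 7.54 at 4 hr, without overlap, and differed by 0.47 (SE 0.14, adjusted p = 0.0673). It was called without sham 1 month replicate 1 (adjusted p = 0.0467). Rfc1 and Pola2 differed by 0.23 (SE 0.10, adjusted p = 0.244) and 0.24 (SE 0.15, adjusted p = 0.42). Rfc1 read 8.34, 8.38, 8.48 and 8.41 at 1 month and 8.03, 8.37 and 8.12 at 4 hr, and Pola2 7.14, 6.79, 7.05 and 6.78 against 6.59, 6.66 and 6.85, with overlap in both genes.

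Between the strains, sham MG differed in 1 of the 36 genes, Orc6, where 8.83% of all genes were called. Orc6, the smallest subunit of the origin recognition complex, read 6.0, 6.22 and 5.42 at 4 hr and 6.05, 5.91 and 5.38 at 1 month in BALB/c, and 6.31, 6.50 and 6.52 against 6.43, 6.35, 6.56 and 6.43 in C57BL/6. Every BALB/c sham array lay below every C57BL/6 sham array. Orc6 differed by −0.61 (SE 0.13, adjusted p = 0.0125), with a 95% interval from −0.90 to −0.32. It stayed called with each sham array left out, at −0.70 to −0.50. The plates of the strains differed, and 1 probe set measures Orc6, so strain and plate cannot be told apart in this difference, and no other probe set was at hand to check it. The other 35 genes were not called, Cad being the other gene at an unadjusted p under 0.05 with −0.36 (SE 0.16, adjusted p = 0.198), and the median over the 36 was −0.097.

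In the blood of unirradiated mice the genes had a median strain difference of 0.14 against 0.016 over all genes, with 30 of 36 higher in BALB/c and 0 called by limma (0.441% of all genes). At an unadjusted p under 0.05, 4 of the 36 were higher in BALB/c (6.2% of all genes), Rpa1, Orc2, Cdc7 and Topbp1. Rpa1 read 8.95, 8.86, 8.83 and 9.07 in BALB/c and 8.76, 8.64, 8.73 and 8.55 in C57BL/6, without overlap, with a difference of 0.26 (SE 0.092, adjusted p = 0.468). Orc2 read 5.92, 6.22, 6.07 and 6.17 against 5.86, 5.87, 5.87 and 5.40, also without overlap and with a difference of 0.35 (SE 0.13, adjusted p = 0.526). Cdc7 read 5.30, 4.96, 5.22 and 5.50 against 4.80, 4.68, 5.22 and 4.69, with overlap and a difference of 0.40 (SE 0.16, adjusted p = 0.558). Rrm2 spread from 4.12 to 7.65 over the BALB/c and from 4.83 to 7.49 over the C57BL/6 blood arrays. The direction of Orc6 in blood, 0.14, was the opposite of that in sham MG, and its blood arrays overlapped. BALB/c replicate 2 and C57BL/6 replicate 4 were the blood arrays with liver transcripts, and the median was between 0.032 and 0.25 with 1 array left out at a time. Their hepatocyte markers lay 3.29 and 9.61 above the median blood array. C57BL/6 replicate 4 had a median correlation of 0.81 with the other blood arrays. It gave the lowest values of Rpa1 (8.55) and Orc2 (5.40). The other C57BL/6 arrays also lay below every BALB/c array in both genes.

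The study's own thresholds, a log2 fold change beyond 0.58 with an unadjusted p under 0.1 after LD or 0.01 after HD, selected more of these genes. In BALB/c at 4 hr they took 6 of 36 after HD, all lower (Rrm2, Uhrf1, Lig1, Tyms, Dnmt1 and Cdc7), where they took 4.24% of all genes, and 2 after LD, Rrm2 and Uhrf1, both lower, against 1.52%. At 1 month after LD they took 8 in BALB/c, all higher (Uhrf1, Lig1, Cdc7, Rfc5, Pold1, Pole, Tyms and Gins1), against 1.13% of all genes, and 5 in C57BL/6, all lower (Rrm2, Dbf4, Cdc7, Rrm1 and Rfc4), against 1.96%. After HD at 1 month they took 0 in each strain, where 1.75% (BALB/c) and 2.21% (C57BL/6) of all genes were taken, and in C57BL/6 at 4 hr they took 0 after HD and 0 after LD, against 2.19% and 0.356%. Cdc7 was thus taken in both strains at 1 month after LD, with opposite signs, by its brightest probe set alone. Its second probe set gave −0.084 in BALB/c and −0.21 in C57BL/6. Tyms in BALB/c (0.65) and Dbf4 in C57BL/6 (−0.83) were also taken by their brightest probe sets alone. The other Tyms probe sets gave −0.20, −0.099 and −0.16, and the second of Dbf4 gave −0.024. Second probe sets of Uhrf1 in BALB/c (0.33) and of Rrm2 (−0.30), Rrm1 (−0.38) and Rfc4 (−0.34) in C57BL/6 kept the direction within 0.58. Those of Cad (0.65) and Prim1 (0.59), not taken by their brightest, lay beyond 0.58 in BALB/c. At 4 hr after HD in BALB/c, the second probe sets of Cdc7 (−0.42) and Uhrf1 (−0.45) kept the direction within 0.58. That of Rrm2 (−1.08) lay beyond it. The other Tyms probe sets gave −0.032, −0.057 and −0.22 there.

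Other genes of the cell cycle were followed in lists chosen with earlier results of these data known. The 11 genes of the MCM helicase and its licensing had medians of −0.55 and −0.60 at 4 hr after HD in BALB/c and C57BL/6, 0.63 and −0.39 at 1 month after LD, and 1.01 in the strain difference of the LD response at 1 month. None of the 11 was called in these comparisons, the nearest being Mcm6 (−1.69, adjusted p = 0.0511) and Mcm7 (−0.81, adjusted p = 0.0578) at 4 hr after HD in BALB/c. After LD at 1 month, Mcm3 differed by 0.96 (adjusted p = 0.57) in BALB/c and by −0.43 (adjusted p = 0.34) in C57BL/6. The 29 mitosis genes had medians of −0.66 and −0.49 at 4 hr after HD in BALB/c and C57BL/6. At an unadjusted p under 0.05, 20 and 0 of them were lower, where 11.8% and 8.47% of all genes were. At 1 month after LD their medians were 0.013 in BALB/c and −0.62 in C57BL/6, and the median over all genes in BALB/c was 0.032. The 25 further nucleotide synthesis genes had medians between −0.041 and 0.094 in all 8 comparisons with sham. Their member Rrm2b, a ribonucleotide reductase subunit induced by p53, differed by 0.37 (adjusted p = 0.0625) and 0.29 (adjusted p = 0.316) at 4 hr after HD. At 4 hr after HD in BALB/c, where 5.91% of all genes were called, 1 of the 16 further replisome genes was called, a share near that over all genes. It was the nuclease gene Dna2, which fell by 0.67 on the log2 scale (adjusted p = 0.00856). Of the 22 genes of G1/S control 3 were called lower and 1, Cdkn1a, higher, and the D-type cyclin partner Cdk4 fell by 0.70 (adjusted p = 0.015). None of the nucleotide synthesis or mitosis genes was called there. In C57BL/6 Cdk4 differed by −0.62 (adjusted p = 0.0832).

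**Figure D5:**
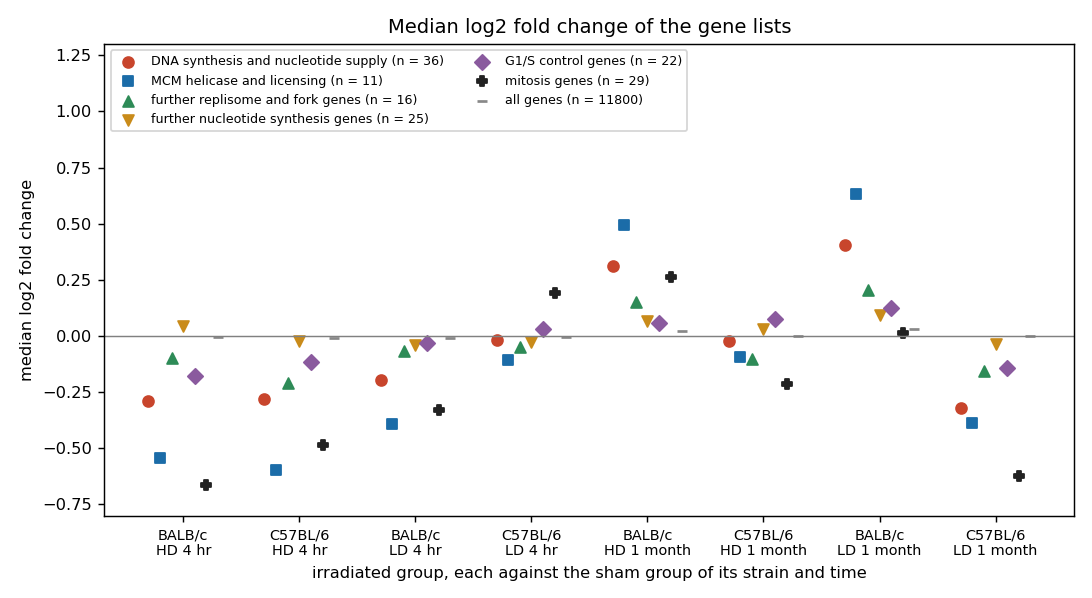
Median log2 fold change against sham of the 36 DNA synthesis and nucleotide supply genes, of 5 other gene lists and of all 11800 genes (symbols), for the 8 irradiated groups. The replication and MCM medians lie below 0 at 4 hr after HD in both strains and on opposite sides of 0 at 1 month after LD, where the mitosis genes follow in C57BL/6 (−0.62) and stay near 0 in BALB/c (0.013).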

How the data were processed

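RNA of 43 MG and 8 blood samples was hybridised to Affymetrix HT_MG-430A arrays. The authors deposited log2 values after RMA (limma is the other tool in the submitters' processing notes, without versions), which were taken without further normalization. Symbols came from the array annotation: of 22626 probe sets, 18003 carry 1 gene, 287 several and 4336 none. Group means were contrasted with limma 3.58.1 (R 4.3.3) with eBayes and Benjamini-Hochberg adjustment over all probe sets, fitted per strain for dose and time, over 43 MG arrays for strain differences of a response, over 13 sham arrays for the sham difference and over 8 blood arrays. Positive strain differences are higher in BALB/c.

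The members and lists were chosen with earlier results of these data known. All members could be named. Values per array are given for the called members of a comparison (up to 4) or else the 3 with the smallest p, and for the 10 genes the study named after LD at 1 month. Chaf1a was not analysed here. No arrays held identical values. Arrays with the same replicate number were treated as unpaired.

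On simulated arrays with 22626 probe sets, the test recovered 38% of changes of 0.5 and 86% of changes of 1 log2 unit for BALB/c HD at 4 hr, 22% and 75% for BALB/c LD at 1 month and 15% and 67% for the strain difference of the LD response at 1 month. The changed probe sets were drawn at random from the whole array. The number of arrays limits precision: the median SE of a log2 fold change over all probe sets was 0.13, 0.15 and 0.19 in these comparisons. For BALB/c HD at 4 hr the SE was 0.10 for Rfc1, 0.37 for Uhrf1 and 0.51 for Rrm2. The recovered shares therefore do not apply to the genes described here with wide spread. Tables and plots were made with matplotlib 3.10.9, numpy 2.4.6 and pandas 2.3.3 under Python 3.11. Each array was left out in turn, and 12 other settings were tried, 1 of them (both sham times pooled) chosen after seeing the data.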

Additional observations from a re-analysis of the deposited data

Results flagged for a closer look

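Of 290 groups of 4 arrays tested over 28 genes and the mean of the 36, 12 held an array that stood apart from the others by Dixon's test of the gap over the group's range, and chance gives about 1 in 20. Values stood low for Rfc3 on C57BL/6 HD 1 month replicate 2 (5.62, others 5.99 to 6.05), Pola2 on C57BL/6 LD 1 month replicate 2 (6.63, others 6.78), Pold2 on C57BL/6 LD 4 hr replicate 3 (7.30, others 7.44 to 7.47) and on BALB/c HD 4 hr replicate 1 (7.24, others 7.54 to 7.58), Gins1 on C57BL/6 HD 4 hr replicate 3 (5.05, others 5.41 to 5.46) and on BALB/c HD 4 hr replicate 3 (5.13, others 5.43 to 5.45), and Orc2 on C57BL/6 blood replicate 4 (5.40, others 5.86 to 5.87). They stood high for Rpa1 on BALB/c HD 1 month replicate 1 (9.60, others 9.03 to 9.11), Orc6 on BALB/c LD 4 hr replicate 1 (6.31, others 6.14 to 6.16), Topbp1 on C57BL/6 blood replicate 3 (7.06, others 6.69 to 6.71), and Tyms (5.64, others 4.47 to 4.61) and Tk1 (6.60, others 5.24 to 5.38) on C57BL/6 blood replicate 4. Of these arrays, BALB/c HD 4 hr replicate 1, BALB/c HD 1 month replicate 1, BALB/c LD 4 hr replicate 1 and C57BL/6 blood replicate 4 held transcripts of another tissue.

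The mean of the 36 genes at 1 month after LD, relative to the sham mean of the strain, was 0.15 and 0.65 on the BALB/c arrays and −0.50 to −0.28 on the C57BL/6 arrays. All LD arrays thus lay above the sham mean in BALB/c and below it in C57BL/6. They overlapped the single sham arrays in both strains. The LD arrays read 6.36 and 6.86 against 6.01 to 6.38 in BALB/c, and 5.99 to 6.21 against 6.11 to 6.95 in C57BL/6. The difference of 0.75 in the mean itself was not tested.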

How the results depend on the processing

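Over the settings tried, the pooling of both sham times among them, and each array left out in turn, 1455 of the single-gene values kept their direction and their side of the adjusted p threshold, 17 passed it only under the other setting, 10 no longer passed it and 1 reversed, Rrm2 in BALB/c LD at 1 month, which was −0.24 (adjusted p = 0.952) with both sham times pooled. The cause of these changes was not tested. For BALB/c HD at 4 hr the number of called genes, 1 as reported, was 4 with array weights, 2 with the mean of probe sets, 2 with all MG arrays in one fit, 6 by the study's thresholds and 0 with the plate column, without arrays holding other-tissue transcripts, with the compared groups only or with both sham times pooled, and 0 to 8 with arrays left out in turn. Its 10 genes lower at an unadjusted p under 0.05 were 17 with array weights, 4 with dim probe sets left out, 3 with the plate column, 4 without arrays holding other-tissue transcripts, 5 with both sham times pooled and 4 to 19 with arrays left out. For BALB/c HD against LD the called genes, 0 as reported, were 3 with array weights, 2 with dim probe sets left out, 3 with arrays centred, 2 with all MG arrays in one fit and 0 to 1 with arrays left out. In BALB/c LD at 1 month the 12 genes higher were 4 with dim probe sets left out, 3 with the plate column, 6 with both sham times pooled and 1 to 21 with arrays left out, and its median of 0.41 was 0.17 to 0.63. The study's thresholds gave 2 genes for BALB/c LD at 4 hr, 8 at 1 month, and 5 for C57BL/6 LD at 1 month. For the BALB/c HD response between the times, the 12 genes were 4 with dim probe sets left out, 1 without arrays holding other-tissue transcripts (median 0.19) and 10 to 21 with arrays left out. For BALB/c sham MG between the times, the 9 genes were 4, 2 and 2 to 18 under the same settings. For C57BL/6 HD at 4 hr, the 6 genes lower were 1 with dim probe sets left out, 10 with the compared groups only, 12 with both sham times pooled (4 called) and 0 to 12 with arrays left out. For C57BL/6 LD at 1 month the 9 were 4 with dim probe sets left out, 14 with both sham times pooled and 2 to 21 with arrays left out. With the plate column, the median was −0.26 for C57BL/6 LD at 4 hr and −0.33 for C57BL/6 HD at 1 month. Called genes were 1 for C57BL/6 HD against LD with dim probe sets left out and 0 to 1 with arrays left out, and 1 for C57BL/6 sham MG between the times with dim probe sets left out or with the mean of probe sets and 0 to 1 with arrays left out. For the strain difference of the LD response at 1 month the 24 genes were 12 with dim probe sets left out and 7 to 28 with arrays left out, and the median was 0.49 with both sham times pooled. The counts with dim probe sets left out, here and above, are over fewer of the genes. Orc6 is dim, so the sham strain difference had 0 called genes with dim probe sets left out (11313 kept). It had 1 to 1 with arrays left out. With the replicate number as a block, 1 gene was called for BALB/c HD at 4 hr (Lig1, adjusted p = 0.0487), 1 for the sham strain difference (Orc6, adjusted p = 0.0269) and 0 in every other comparison, so the block changed no call. Mean correlations of same-numbered arrays were −0.128 to 0.170, so the arrays were not taken as paired.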
